A study of Mus musculus with 2 samples.

Results

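The genes described here are 40 of the 27998 genes listed in the files: structural genes of the contractile apparatus and of focal adhesions, many of them known targets of serum response factor (SRF). They were chosen by symbol, with actin and tropomyosin genes left out, and all 40 were found once each. They were split into 13 muscle-restricted genes, whose products are best known from smooth, cardiac or skeletal muscle, and 27 general genes that most adherent cells use. The data are 2 droplet single-cell libraries of cultured lung fibroblasts from wild-type C57BL/6 mice, an inbred strain, 1 control and 1 stimulated. Whole lung suspensions were plated and grown to passage 3 in medium with 10% serum, and treatment then lasted 14 days. Agents named in the protocol, to be given singly or together, are rosiglitazone at 10 µM, which activates PPARG, SB4315442 at 1 µM, and the growth factor rhBMP4 at 4 µM; the supplement ITS+3 at 1% by volume was for a lipofibroblast-like state. The labels do not say which of these the stimulated library received. Control cells came from the same lung and had vehicle. Neither group has a replicate, the number of mice is not stated, no test across samples was possible, and every interval is a 95% interval that covers counting error only.

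SRF is a transcription factor that binds CArG boxes, a CC and a GG around a run of A or T bases. Its partners MRTF-A and MRTF-B (Mkl1 and Mkl2 in these files), relatives of myocardin, are held in the cytoplasm by monomeric actin. They move to the nucleus when actin polymerises, so that tension and TGF-beta signals raise contractile genes. In lung fibroblasts the same gene set marks the change to myofibroblasts, which pull on the matrix through stress fibres anchored at focal adhesions.

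Promoter sequences show where a CArG box lies close to a member's start site. RefSeq promoters (GRCm38.p6, from 250 bases before to 50 after each start site) were matched for 35 of the 40 members; Tagln, Myh11, Pxn, Parva and Csrp2 had no entry. Of the 35, 7 genes held at least 1 box, 20% against 1.81% of all 27025 genes in the table. Counted over single promoters the share was 16.7% of 48 against 1.63% of 32851. The box reads the same on both strands. By split, 2 of 11 matched muscle-restricted genes and 5 of 24 matched general genes held one. The letters CATTCC on either strand, the core of the MCAT element that TEAD factors bind, were in 13 of the 35, 37.1% against 16.6% of all genes. A match is a run of letters and not a measured binding site.

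The 250 bases before the start site are shown for Myl9 and Fhl1, the 2 muscle-restricted members with a box in this window, and capitals mark the box. The Myl9 stretch is chr2:156775214-156775463 on the plus strand and the Fhl1 stretch chrX:56779433-56779682 on the plus strand.
Myl9: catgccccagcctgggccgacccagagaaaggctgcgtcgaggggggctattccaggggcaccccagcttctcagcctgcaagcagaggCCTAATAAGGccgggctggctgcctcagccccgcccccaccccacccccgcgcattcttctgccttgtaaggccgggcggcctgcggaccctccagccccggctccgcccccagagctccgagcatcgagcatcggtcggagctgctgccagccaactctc
Fhl1: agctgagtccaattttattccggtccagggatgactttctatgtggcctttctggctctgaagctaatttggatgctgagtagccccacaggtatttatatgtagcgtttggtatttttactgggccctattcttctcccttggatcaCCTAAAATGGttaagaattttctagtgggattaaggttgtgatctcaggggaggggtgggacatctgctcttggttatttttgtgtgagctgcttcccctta

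Shorter stretches show the boxes of the 5 general members that hold one, with the flanking bases in lower case; they are shown because these genes carry a box but belong to the general group. They lie at chr10:79988529-79988568 (Cnn2) and chr14:20929156-20929195 (Vcl) on the plus strand, and at chr10:128493035-128493074 (Myl6), chr17:46556200-46556259 (Srf) and chr1:43163968-43164007 and chr1:43196833-43196872 (Fhl2, which has 2 start sites with a box) on the minus strand. The Srf gene, whose product binds this motif, holds 2 boxes.
Cnn2: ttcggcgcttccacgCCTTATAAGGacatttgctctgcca
Vcl: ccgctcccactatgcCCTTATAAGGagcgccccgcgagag
Myl6: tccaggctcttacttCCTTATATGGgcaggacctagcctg
Srf: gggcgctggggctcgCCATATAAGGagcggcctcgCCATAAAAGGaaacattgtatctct
Fhl2: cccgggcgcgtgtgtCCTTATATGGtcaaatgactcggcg
Fhl2: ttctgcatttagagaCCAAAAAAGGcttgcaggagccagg
Counted from the start site, the box nearest to it was that of one Fhl2 promoter, at -31 to -22, and the farthest that of Vcl, at -227 to -218. Lower levels by 1.5-fold or more in the stimulated library were seen for 6 of the 7 members with a box, the share of all measured genes being 12%. Of the 26 measured members without one 16 were. Myl6, at 1810.4 against 1238 CPM, is the member with a box that was not.

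The libraries held 4703 control and 7468 stimulated cells after filtering, with medians of 19634 and 15379.5 UMIs (unique molecular identifiers, 1 per captured transcript). Levels are given as CPM, the UMIs of a gene per 1000000 UMIs of the library, and are read at transcript 3′ ends, so they do not scale with transcript length. The libraries shared 53 cell barcodes. Cells were clustered without the members, the other genes of their pathway, actins and tropomyosins, and fibroblast-like clusters took in 79% of the control against 89.4% of the stimulated cells. All 12 fibroblast markers were measured, with 8 lower and 3 higher at 1.5-fold, against 12% and 7.75% of all genes. Their summed level was 10628 against 4340 CPM. Lum, at 19.5 against 0.162 CPM, is among the 8. It reached a mean of 5 CPM only through the control, so it could only be counted as lower. Macrophage-like cells were 3.13% of the control and 0.0134% of the stimulated library, and the 12 macrophage markers summed to 745 against 14.3 CPM; mesothelial-like cells were 1.28% and 0.321%. Unnamed clusters, most of them shallow, held 16.6% and 10.3%. Of 10 smooth muscle markers that are no members, 6 were under 1 CPM in both libraries, Myocd among them; the most abundant were Acta2 (3217 against 1097 CPM) and Actg2 (660.3 against 59.3 CPM), and the summed level was 3929 against 1193 CPM. Of the 4 measured smooth muscle markers 3 were at least 1.5-fold lower, against 12% of all genes, and Npnt stood at 36.7 against 34.1 CPM. Kcnmb1, at 15.3 against 1.13 CPM, is among the 3. It reached a mean of 5 CPM only through the control, so it could only be counted as lower. The 9 pericyte markers summed to 97.5 against 36.1 CPM, of which Ndufa4l2 gave 65.8 and 16.3 CPM. Of the 4 measured pericyte markers 2 were lower, against 12% of all genes. Cox4i2 (4.81 against 5.67 CPM) and Cspg4 (5.87 against 5.81 CPM) were not. Mcam, at 10.7 against 1.76 CPM, is 1 of the 2 lower ones. It too reached a mean of 5 CPM only through the control. Rgs5, which defines pericytes, was under 1 CPM in both. Within fibroblast-like clusters alone, 9 muscle-restricted and 18 general members were lower at 1.5-fold, with median log2 folds of -1.76 and -0.81. Over all cells 8 of 11 and 17 of 27 measured members were, where 12% of all measured genes were. The share over all genes was not counted in fibroblast-like clusters alone, where all log2 folds shifted by a median of -0.0093. What part the lower sums of smooth muscle and pericyte markers have in the results was not tested.

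The contractile genes were lower in the stimulated library, and the muscle-restricted ones by more. Together the 13 muscle-restricted members took 4857 CPM of the control and 1609 CPM of the stimulated library, 3.02-fold lower (3.00 to 3.04), and the 27 general members 9419 against 5615 CPM, 1.68-fold lower (1.67 to 1.68). Both intervals are narrow because the sums count many molecules; they say nothing of the spread between cultures. Of the 40 members, 38 had a mean of at least 5 CPM, the level set for comparing folds; Synpo2 and Sorbs2 did not, and their values are given below. Of 11 measured muscle-restricted members 8 were at least 1.5-fold lower and of 27 general members 17, while 12% of all 8787 measured genes were. Myh11, at 28.4 against 0.393 CPM, is among the 8 and reached a mean of 5 CPM only through the control. It could thus only be counted as lower. The same holds for the counts between libraries in fibroblast-like clusters, cluster pairs and Acta2 ranges that include it. No measured member was at least 1.5-fold higher, where 7.75% of all genes were. At 2-fold the counts were 8 and 6 members lower, against 5.05% of all genes, and none higher, against 3.3%. The median log2 fold was -1.78 for the muscle-restricted, -0.79 for the general members and -0.06 for all measured genes. In these summed libraries fewer expressing cells and less RNA per cell cannot be told apart; the levels per cell are given further on.

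**Figure D1:**
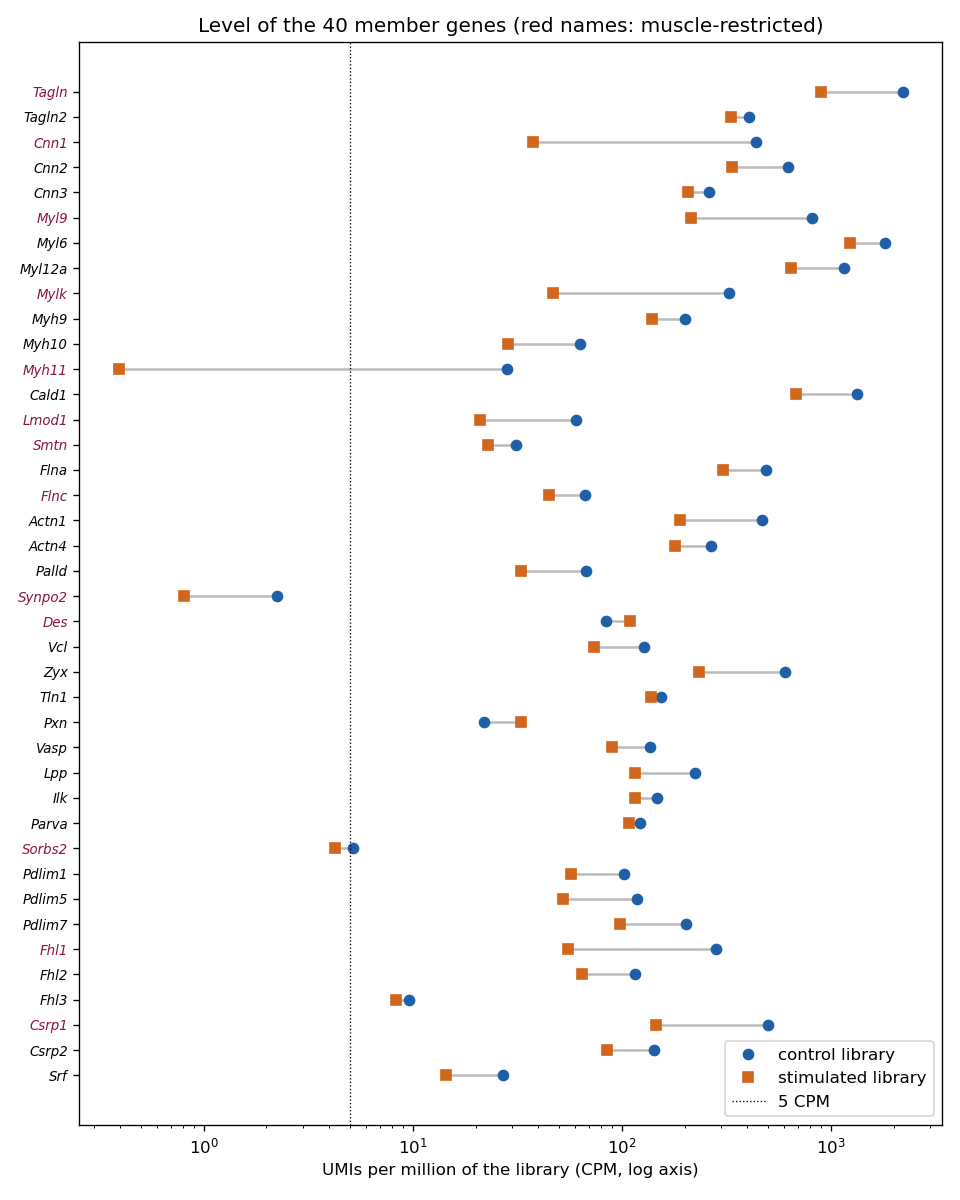
Level of each of the 40 members in CPM (log axis) in the control library (circles) and the stimulated library (squares), ordered by role, with red names for muscle-restricted genes and a dotted line at 5 CPM. Des and Pxn are the members whose square lies to the right of the circle, and Myh11 spans the widest gap, from 28.4 to 0.393 CPM.

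Transgelins and calponins bind along actin filaments and, in muscle, slow the myosin that pulls on them. Tagln, the transgelin of smooth muscle and the most abundant member in the control, stood at 2215 CPM in control and 903 CPM in stimulated cells. It was 2.45-fold lower (2.43 to 2.47). Its relative Tagln2, found in most cells, differed far less, with 405 against 334 CPM, 1.21-fold lower (1.20 to 1.23). Among the calponins, Cnn1, the smooth muscle form, was at 439 CPM in control and 37.7 CPM in stimulated cells, 11.7-fold lower (11.3 to 12). Cnn2 was at 629 against 337 CPM, 1.87-fold lower (1.84 to 1.89), and Cnn3 at 262 against 208 CPM, 1.26-fold lower (1.24 to 1.28). The make-up of the family differed accordingly, a measure that library scaling cannot move. Cnn1 gave 33% (32.8 to 33.3%) of the UMIs of the 3 calponin genes in the control against 6.46% (6.28 to 6.65%) in the stimulated library, and Cnn3 19.7% (19.5 to 19.9%) and 35.7% (35.4 to 36.1%).

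Myosin II generates the force: heavy chains form the motor, regulatory light chains switch it on when phosphorylated, and the kinase Mylk phosphorylates them. The smooth muscle heavy chain gene Myh11 had 2514 UMIs in the control against 46 in the stimulated library, 28.4 CPM in control and 0.393 CPM in stimulated cells. It reached a mean of 5 CPM only through the control. Its fold was the largest of all members, 72.3-fold lower (54 to 99), and the width of its interval comes from the 46 stimulated UMIs. The non-muscle heavy chain genes differed less. Myh9 was at 202 against 139.5 CPM, 1.44-fold lower (1.41 to 1.48), and Myh10 at 63.1 against 28.6 CPM, 2.21-fold lower (2.12 to 2.31). Of the UMIs of these 3 genes, Myh11 gave 9.69% (9.33 to 10.1%) in the control against 0.233% (0.171 to 0.311%) in the stimulated library, and Myh9 68.8% (68.2 to 69.3%) and 82.8% (82.3 to 83.3%).

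Among light chains the order was the same, with the smooth muscle form furthest apart. Myl9, the regulatory light chain of smooth muscle, was at 817 CPM in control and 215 CPM in stimulated cells, 3.79-fold lower (3.74 to 3.85). Myl12a, the regulatory light chain of non-muscle myosin, was at 1159 against 648 CPM, 1.79-fold lower (1.77 to 1.80). In the GENCODE M21 transcripts 14.5% of its 3′ end windows matched Myl12b, and it is the only member with any such match to another listed gene. Myl6, the essential light chain, was at 1810.4 against 1238 CPM, 1.46-fold lower (1.45 to 1.47). The kinase gene Mylk was at 325 CPM in control and 46.9 CPM in stimulated cells, 6.92-fold lower (6.73 to 7.13). Myl9 made up 41.3% (41.1 to 41.6%) of the UMIs of Myl9 and Myl12a in the control against 24.9% (24.7 to 25.2%) in the stimulated library.

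Regulators of the thin filament split between large and small differences. Cald1 encodes caldesmon, which blocks myosin on actin; it was at 1338 against 680.0 CPM, 1.97-fold lower (1.95 to 1.99). Lmod1, a smooth muscle leiomodin that nucleates actin filaments, was at 60.3 against 20.9 CPM, 2.88-fold lower (2.75 to 3.03). Smtn, which encodes smoothelin, an actin-binding protein of contractile smooth muscle, differed by less than 1.5-fold, at 31.3 against 22.9 CPM, 1.37-fold lower (1.3 to 1.44).

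Crosslinkers bundle actin into stress fibres. Of the alpha-actinin genes, Actn1 was at 467 against 190.0 CPM, 2.46-fold lower (2.42 to 2.50), and Actn4 at 269 against 180.4 CPM, 1.49-fold lower (1.46 to 1.52). Actn1 gave 63.5% (63.1 to 63.9%) of their UMIs in the control against 51.3% (50.8 to 51.8%) in the stimulated library. The filamin genes differed by similar factors. Flna was at 489 against 305 CPM, 1.60-fold lower (1.58 to 1.62), and the muscle filamin gene Flnc at 66.9 against 44.9 CPM, 1.49-fold lower (1.44 to 1.55), so that Flnc made up 12% (11.8 to 12.3%) and 12.8% (12.5 to 13.2%) of the pair. Palld, whose product palladin links alpha-actinin to the fibre, was at 67.3 against 32.9 CPM, 2.05-fold lower (1.96 to 2.13). Synpo2, which encodes the muscle protein myopodin, was below the level set for comparison, at 2.24 against 0.802 CPM from 198 and 94 UMIs.

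Genes of the adhesion plaque, which ties stress fibres to integrins, were mixed: 4 of 8 were lower by 1.5-fold or more, against 12% of all genes. Zyx, which encodes zyxin, a protein that enters adhesions under tension, stood at 602 CPM in control and 234 CPM in stimulated cells, 2.57-fold lower (2.53 to 2.61). Its relative Lpp was at 224 against 116 CPM, 1.93-fold lower (1.89 to 1.97), and Vcl, the vinculin gene, at 128 against 74.2 CPM, 1.72-fold lower (1.68 to 1.77). Vasp, which encodes an actin polymerase of adhesions, was at 137 against 90.3 CPM, 1.52-fold lower (1.48 to 1.56). The talin gene Tln1, whose product activates integrins, was at 154 against 139 CPM, a fold of 0.900 (0.880 to 0.921). The partner genes Ilk and Parva, at 148 against 116 CPM and 123 against 109 CPM, also lay within 1.5-fold, with folds of 0.785 (0.766 to 0.804) and 0.883 (0.860 to 0.905). Pxn, which encodes the scaffold paxillin, was the only plaque member at a higher level, at 22 CPM in control and 32.8 CPM in stimulated cells, a fold of 1.49 (1.41 to 1.58) that lies just under 1.5. Vasp and the filamin gene Flna were under 1.5-fold lower, and Pxn was over 1.5-fold higher, in at least 1 of the 8 other settings of scaling and cells. Sorbs2, an adaptor of muscle, was below the level set for comparison, at 5.16 against 4.27 CPM.

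LIM domain proteins carry signals between adhesions, stress fibres and the nucleus, and 7 of 8 genes were at least 1.5-fold lower, against 12% of all genes. Fhl1 was at 284 CPM in control and 55.6 CPM in stimulated cells, 5.11-fold lower (4.97 to 5.25). Fhl2, whose product can bind SRF, was at 116 against 65 CPM, 1.79-fold lower (1.73 to 1.84), and Fhl3 at 9.59 against 8.29 CPM, a fold of 0.864 (0.788 to 0.949). Fhl1 made up 69.3% (68.9 to 69.8%) of the UMIs of these 3 genes in the control against 43.2% (42.4 to 43.9%) in the stimulated library. Csrp1, a cysteine-rich LIM protein of smooth muscle, was at 499 against 146 CPM, 3.43-fold lower (3.37 to 3.49), and Csrp2 at 144 against 85.5 CPM, 1.68-fold lower (1.64 to 1.72). The PDZ and LIM genes lay close together. Pdlim1 was at 103 against 57.6 CPM, Pdlim5 at 118 against 52.4 CPM and Pdlim7 at 203 against 98.8 CPM, 1.78, 2.26 and 2.05-fold lower. The Srf gene itself was at 27 CPM in control and 14.5 CPM in stimulated cells, 1.86-fold lower (1.75 to 1.98).

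Des encodes desmin, the intermediate filament of muscle, and was with Pxn 1 of 2 members at a higher level after stimulation. It was at 84.1 CPM in control and 110.0 CPM in stimulated cells, a fold of 1.31 (1.27 to 1.35). Most of its stimulated UMIs came from 1 cluster: cluster 12, with 7.07% of stimulated cells, held 76% of them. In the control library cluster 2, with 6.97% of cells, held 27.4%. Without these clusters Des stood at 65.8 against 28.5 CPM and was 2.30-fold lower (2.20 to 2.41), the opposite direction. The control value still includes the mesothelial-like cluster 7, which held 13.3% of control and 0.52% of stimulated Des UMIs. In the fibroblast-like cells outside clusters 2 and 12 Des was at 52.9 against 26.5 CPM. Sorbs2 was 1.93-fold lower over all cells without clusters 2 and 12, at 3.80 against 1.97 CPM.

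Each fibroblast-like control cluster was paired with the stimulated cluster that shared the largest number of its 10 leading genes, with no minimum set. Most fibroblast-like cells could thus be compared between matched clusters. Stimulated cluster 11, with 967 cells (12.9% of the stimulated library) and led by Ddit3 and Sdf2l1, was in no pair. Clusters 0 and 9 shared Meg3 and Tshz2, clusters 1 and 13 shared 7 cycling genes such as Top2a and Mki67, clusters 2 and 12 shared Hsd3b6, Gzme, Fxyd6, Mcpt8, Limch1 and Sod3, and clusters 3 and 14 shared Hspa5, Serpinf1, Ctsl and Renbp. The pairs were formed after the clusters were seen and are cells of the same 2 libraries. They repeat the comparison within matched clusters, which need not be the same state, and are no replicates. Des is also among the leading genes of cluster 12. Cluster 3 was led by Lum and Dcn, which are not among the leading genes of cluster 14. In clusters 0 and 9, with 1892 and 2898 cells, 9 of 11 muscle-restricted and 18 of 27 general members were at least 1.5-fold lower, against 12.7% of genes. In the cycling clusters 1 and 13 the counts were 9 of 11 and 15 of 27, against 11.4%. In clusters 2 and 12 they were 8 of 13 and 19 of 27, against 17.3%, and in clusters 3 and 14 9 of 11 and 15 of 27, against 17.6%. The median log2 fold of the muscle-restricted members ran from -1.74 to -1.63 over the 4 pairs and that of the general members from -0.80 to -0.66, beside -0.19 to -0.05 for all genes.

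Some members differed by nearly the same factor in every pair. Tagln was 2.06 to 2.33-fold lower over the 4 pairs, Myl9 3.24 to 4.08-fold, Csrp1 3.13 to 3.71-fold, Actn1 2.21 to 2.60-fold and Cnn1 8.57 to 11.8-fold. Others differed between the pairs. Mylk was 12.5-fold lower (11.1 to 14) in clusters 3 and 14, at 355 against 28.4 CPM, and 4.48-fold lower (4.26 to 4.71) in clusters 2 and 12, at 1032 against 230.4 CPM. Zyx was 3.17-fold lower (3.03 to 3.31) in clusters 3 and 14 and 1.44-fold lower (1.38 to 1.51) in clusters 2 and 12. Csrp2 was 5.53-fold lower (4.78 to 6.42) in clusters 2 and 12, at 144 against 25.9 CPM, and between 1.42 and 1.64-fold lower in the other pairs. Tagln2 was at 387 against 482 CPM in clusters 3 and 14, a fold of 1.24 (1.20 to 1.29), and 1.84-fold lower (1.76 to 1.93) in clusters 2 and 12.

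The direction for Des differed between the pairs, which was not tested. In clusters 0 and 9 it was at 55.5 against 26.3 CPM, 2.11-fold lower (1.97 to 2.26), and in the cycling clusters at 52.8 against 22.5 CPM, 2.35-fold lower (2.14 to 2.58). In clusters 3 and 14 it stood at 45.9 against 46 CPM, a fold of 1.00 (0.894 to 1.13). In clusters 2 and 12 it was at 319 against 1109.5 CPM, a fold of 3.48 (3.32 to 3.65). Sorbs2 showed the same arrangement at lower levels, with 22.6 against 32.5 CPM in clusters 2 and 12, a fold of 1.44 (1.17 to 1.77), and 3.47 against 1.56 CPM in clusters 0 and 9. Pxn was higher in all 4 pairs, by 1.20 to 2.05-fold.

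**Figure D2:**
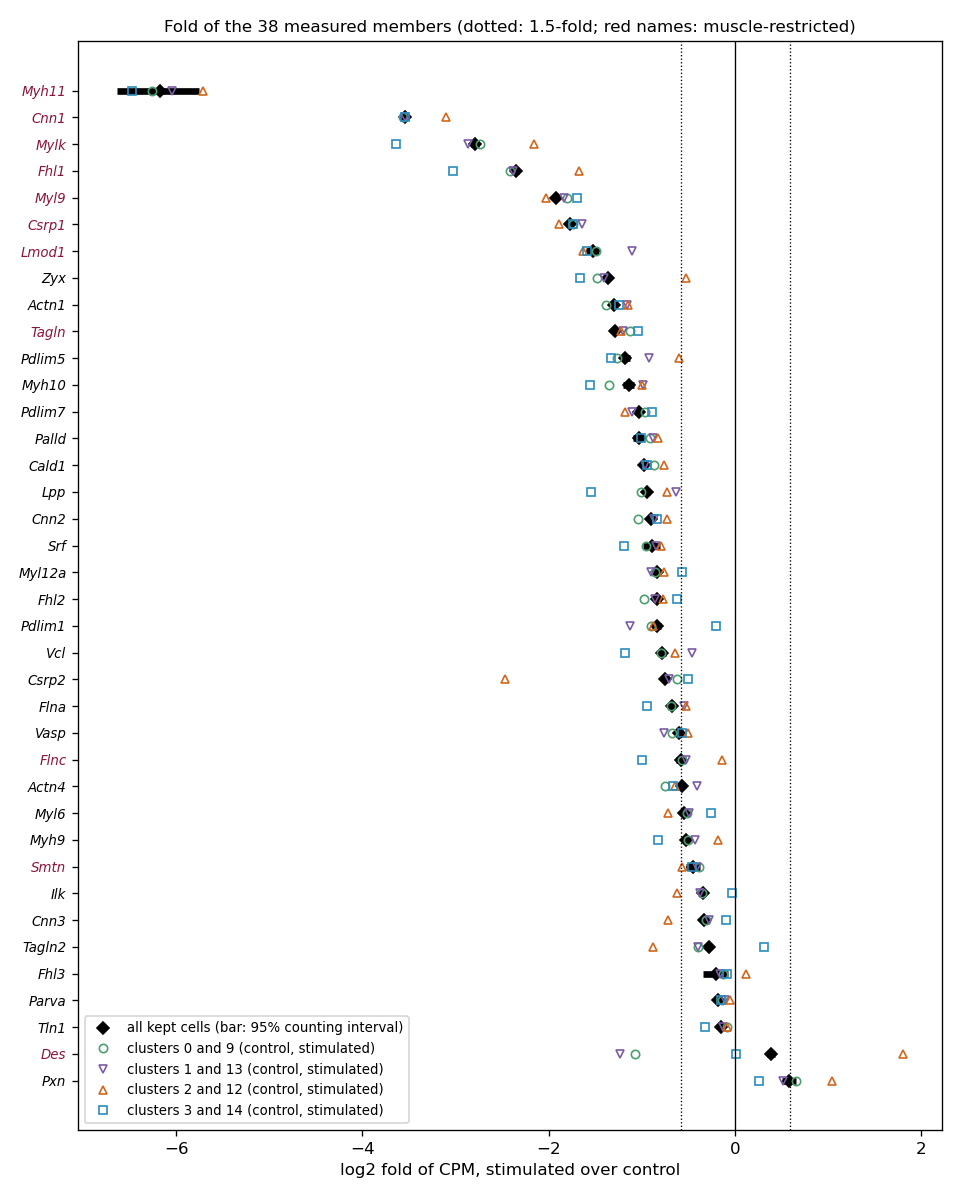
Log2 fold of CPM, stimulated over control, of the 38 measured members over all kept cells (black diamonds, bars for 95% counting intervals) and within the 4 pairs of clusters (open symbols), with dotted lines at 1.5-fold. For most members the open symbols lie on the same side of 0 as the diamond; for Des they run from -1.23 to 1.80.

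Clusters 2 and 12 had the highest muscle-restricted sums among the fibroblast-like clusters of their libraries. In the control, cluster 2 stood at 8838 CPM and the other 3 clusters at 4082 to 5540.4 CPM. In the stimulated library, cluster 12 stood at 3795 CPM and the other 4 at 1110.0 to 1984 CPM, so that the highest stimulated value lay below the lowest control value. Against the other fibroblast-like cells of its library, cluster 2 had 16 of 39 measured members at least 1.5-fold higher, where 12.2% of all genes were. Cluster 12 had 19 of 38, where 9.53% of all genes were. Sorbs2 reached a mean of 5 CPM only through these clusters, and without it the counts were 15 and 18, with 13 shared. With it 14 were shared, 87.5% of the first set and 73.7% of the second. Cluster 2 had none at least 1.5-fold lower, the share over all genes being 3.54%, and cluster 12 had 1, Csrp2, where 6.72% of all genes were.

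The filament gene Des, the kinase gene Mylk and the LIM gene Fhl1 show the size of these differences. Des was at 319 against 52.9 CPM (6.03-fold, 5.71 to 6.36) in cluster 2 and its library's other fibroblast-like cells, and at 1109.5 against 26.5 CPM (41.9-fold, 40.2 to 43.7) in cluster 12 and its own. Mylk was at 1032 against 267 CPM (3.86-fold, 3.75 to 3.97) in the control against 230.4 against 32 CPM (7.21-fold, 6.82 to 7.62) in the stimulated library. Fhl1 was at 731 against 249 CPM (2.93-fold, 2.84 to 3.03) and 229 against 41.2 CPM (5.55-fold, 5.26 to 5.85). Csrp2 went the other way in the stimulated library, at 144 against 145 CPM (0.993-fold, 0.927 to 1.06) in the control against 25.9 against 90.9 CPM (0.285-fold, 0.249 to 0.325) in the stimulated library.

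**Figure D3:**
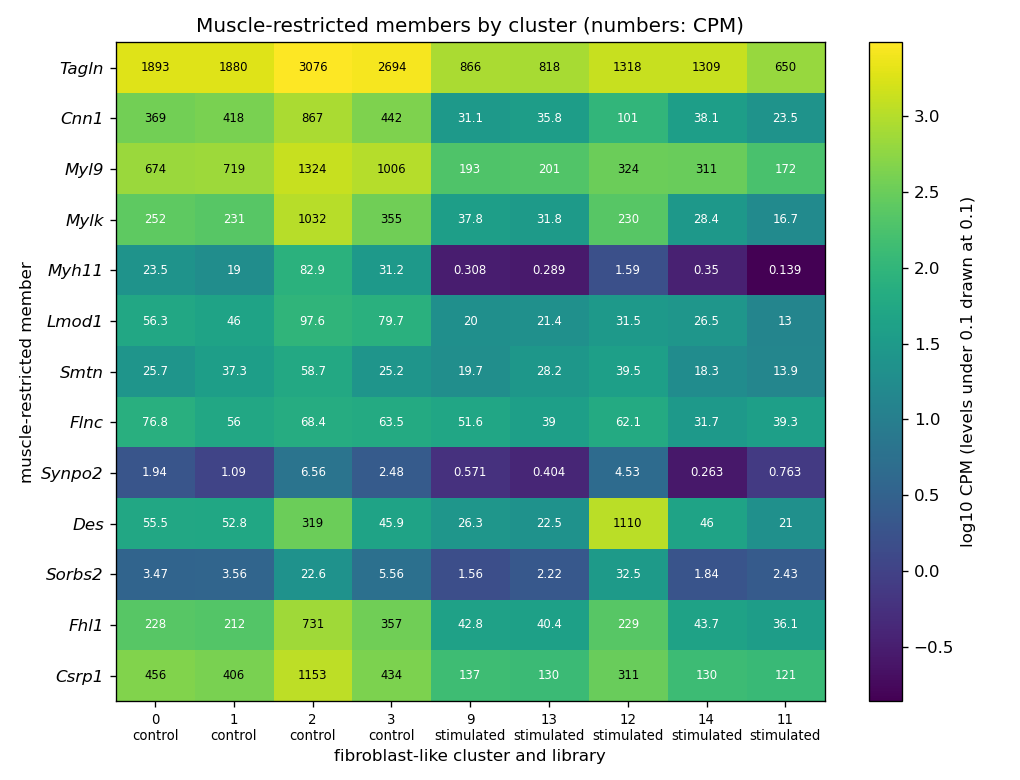
Level of the 13 muscle-restricted members in each fibroblast-like cluster with at least 50 cells of a library, with control clusters on the left and stimulated clusters on the right; colour is log10 CPM and the numbers are CPM. Columns 2 and 12 hold the highest Mylk, Fhl1, Sorbs2 and Des of their libraries, and Myh11 is at or under 1.59 CPM in every stimulated cluster.

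The difference lay across most cells rather than in a few. After every cell was thinned to 5000 UMIs, which left out 626 control and 760 stimulated cells that were shallower, a control fibroblast-like cell carried a median of 20 UMIs of the 13 muscle-restricted members (5th to 95th percentile 5 to 61, 3683 cells). A stimulated one carried 5 (0 to 23, 6621 cells). Only 6.89% of stimulated cells lay above the control median, and 5.12% had no such UMI, against 0.0272% of control cells. For the 27 general members the medians were 45 (23 to 80) and 26 (13 to 49), with 7.08% of stimulated cells above the control median. None of these cells was without a UMI of a general member.

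**Figure D4:**
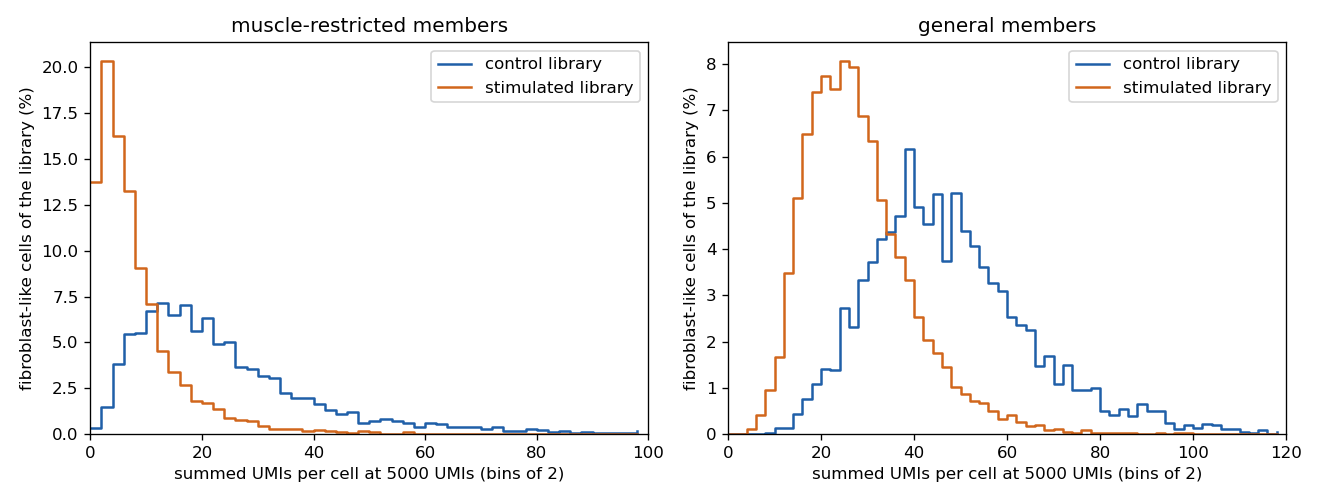
Distribution over fibroblast-like cells of the summed UMIs of the muscle-restricted members (left) and the general members (right) per cell thinned to 5000 UMIs, in percent of each library's cells. Each library forms 1 main peak, and the peak of the stimulated library lies lower in both panels, with medians of 5 against 20 and 26 against 45.

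Shares of cells with a UMI went the same way. At 5000 UMIs, 69.6% (68.1 to 71.1%) of control and 11.7% (10.9 to 12.5%) of stimulated fibroblast-like cells carried a Cnn1 UMI, and without thinning 92.4% and 23.8%. For Mylk the thinned shares were 49.3% (47.7 to 51%) and 15.9% (15 to 16.8%), and the unthinned ones 74.2% and 31.1%. Tagln was seen in 98.9% (98.5 to 99.2%) and 83.1% (82.2 to 84%) (99.9% and 94.5% unthinned). Macrophages are not known for Tagln or Cnn1, yet among the 129 control macrophage-like cells with 5000 UMIs 52.7% (43.7 to 61.6%) carried a Tagln, 27.9% (20.4 to 36.5%) a Cnn1 and 20.2% (13.6 to 28.1%) a Mylk UMI. The median depths before thinning were 10554 UMIs in macrophage-like, 21463 in control fibroblast-like and 16099 in stimulated fibroblast-like cells. The control fibroblast-like shares stood above this background for all 3 genes. The stimulated shares of Cnn1 and Mylk lay below it, but it comes from the control library and sets no floor for the stimulated one. These shares alone thus do not tell expression from free RNA. Within the stimulated library both genes differed between clusters. Cnn1 was at 101 CPM and Mylk at 230.4 CPM in cluster 12, against 32.4 and 32 CPM in the other fibroblast-like cells. In the stimulated library, with 1 macrophage-like cell, no such background could be measured, and whether free RNA differs between the libraries was not tested.

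The actin gene Acta2, which is no member, allowed cells of the 2 libraries to be compared at a like UMI count of this myofibroblast actin. Between cells with 0 to 2 and cells with at least 20 Acta2 UMIs, 38 of 39 measured members were higher in the latter in the control, where 60.9% of all genes were. In the stimulated library 35 of 38 were, where 55.4% of all genes were. Some of these members reached a mean of 5 CPM only through the highest range, so they could only be counted as higher. They are Myh11 (3.94 against 84.4 CPM) and Sorbs2 (4.51 against 9.29 CPM) in the control, and Sorbs2 (2.93 against 11.4 CPM) in the stimulated library. In control fibroblast-like cells Tagln stood at 928, 1477, 2168 and 3677 CPM in cells with 0 to 2, 3 to 9, 10 to 19 and at least 20 Acta2 UMIs at 5000 UMIs. In stimulated cells it stood at 426, 967, 1709 and 3061 CPM. Pxn ran the other way, from 29.9 to 17.3 CPM in control and from 37 to 27.3 CPM in stimulated cells between the lowest and the highest range.

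At the ends, where Acta2 differed more between libraries, 18 of 37 measured members were lower in cells with 0 to 2 Acta2 UMIs, against 14.4% of genes, and 20 of 39 in cells with at least 20, against 19.7%. Cells with 3 to 9 Acta2 UMIs (1506 control and 2562 stimulated) had means of 5.81 and 5.11 Acta2 UMIs. Among them 8 of 11 muscle-restricted and 9 of 27 general members were lower by 1.5-fold or more after stimulation, against 12.3% of genes, and the medians were -1.21 and -0.43. In cells with 10 to 19 (1047 and 655 cells, means 13.6 and 13.2) the counts were 8 of 12 and 10 of 27, against 16% of genes, with medians of -0.81 and -0.56. In this last range Cnn1 was at 511 against 103 CPM, 4.98-fold lower (4.45 to 5.60). Mylk was at 377 against 104 CPM, 3.61-fold lower (3.22 to 4.06). Fhl1 was at 355 against 97.7 CPM, 3.63-fold lower (3.23 to 4.10). Zyx was at 671 against 268 CPM, 2.51-fold lower (2.33 to 2.70).

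Other members came close together at a like Acta2 count. In cells with 10 to 19 Acta2 UMIs, Tagln was at 2168 against 1709 CPM, 1.27-fold lower (1.23 to 1.31), where it was 2.45-fold lower over all cells. Myl6 was at 1849 against 1805 CPM (1.02-fold lower, 0.992 to 1.06), Cnn3 at 285 against 272 CPM (1.05-fold lower, 0.964 to 1.14) and Tln1 at 174 against 168 CPM, a fold of 0.965 (0.867 to 1.07). Cnn1, Mylk, Fhl1 and Zyx thus differed between libraries by larger factors than Tagln and Myl6 in cells of this range. Des was at a higher level in the stimulated library in every range, 2.32, 3.13 and 1.76-fold in the lower 3 and 171 against 258 CPM in the highest. Cluster 12 held 76% of the Des UMIs of the whole stimulated library, and the ranges were not recounted without clusters 2 and 12. Sorbs2 was at 3.25 against 9.47 CPM in cells with 10 to 19 Acta2 UMIs, from 17 and 31 UMIs. At 1.5-fold 1, 2, 2 and 2 members were higher in the 4 ranges, against 13.1%, 10.5%, 11% and 10.7% of genes. In the range of 10 to 19 Sorbs2 is 1 of the 2. There it reached a mean of 5 CPM only through the stimulated library, so it could only be counted as higher. Ranges of Acta2 share their cells' library and depth, and these values carry no test. They rest on counted UMIs, so cells of a like count in the 2 libraries need not have a like Acta2 level. What part this has in the folds was not tested.

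**Figure D5:**
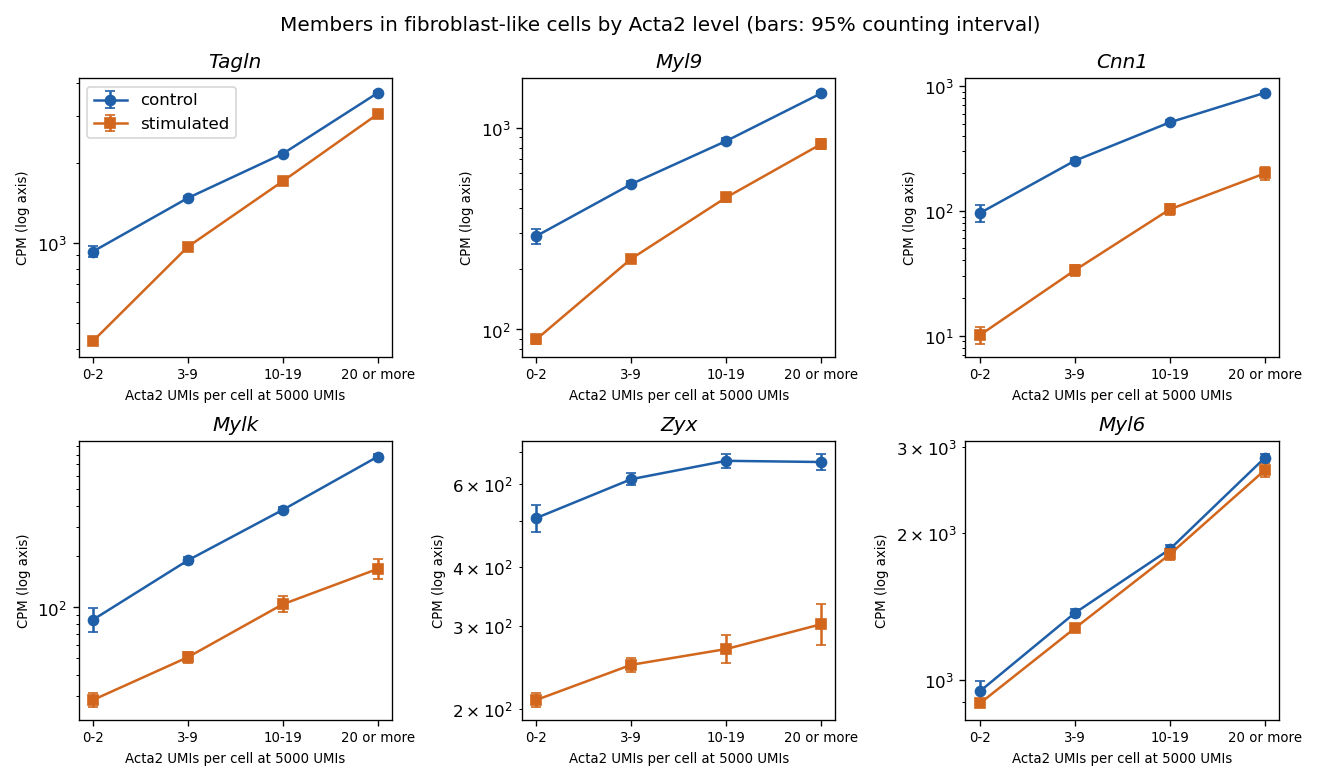
CPM (log axes) of 6 members in fibroblast-like cells grouped by Acta2 UMIs at 5000 UMIs per cell, with 95% counting intervals; circles and squares stand for the control and stimulated libraries. The lines of Myl6 nearly meet, those of Tagln meet towards high Acta2, and those of Cnn1, Mylk and Zyx stay apart in all 4 ranges.

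Other genes of the pathway were taken from lists written out in full, whether or not their members differed. The lists were chosen with earlier results of these data known, so their counts beside the shares of all genes are descriptive. Of 10 measured SRF partners and regulators of 15 listed, 2 were at least 1.5-fold lower and 1 higher, against 12% and 7.75% of all measured genes. Mkl1, which encodes MRTF-A, was at 38.4 against 22.5 CPM, a fold of 0.585 (0.556 to 0.616), and Mkl2, MRTF-B, at 20.4 against 17.4 CPM, a fold of 0.853. Filip1l, a filamin-interacting protein gene, had the largest fold of this list, at 39.97 against 12.4 CPM, a fold of 0.311 (0.293 to 0.331). Elk3, a factor of the ternary complex type that shares SRF with MRTF, had the highest mean, at 46.9 against 47.1 CPM, a fold of 1.00 (0.964 to 1.05). Myocd, the myocardin gene, had 15 and 23 UMIs. Mef2c, a muscle factor that often works beside SRF, was at 10.3 against 16.1 CPM, a fold of 1.56 (1.44 to 1.69). The other measured factors, Elk1, Elk4, Mef2a, Mef2d and Gata6, lay between folds of 0.790 and 1.16.

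Of 20 other cytoskeletal targets of MRTF and SRF 10 were lower and 0 higher, against 12% and 7.75% of all genes, and the median log2 fold was -0.55 against -0.06; Tgfb1i1, whose symbol is listed more than once, was left out. Thbs1, the thrombospondin gene, was the most abundant, at 3791 against 1443 CPM, a fold of 0.381 (0.378 to 0.383), and Ctgf, a matricellular target, had the largest fold, at 254 against 72.9 CPM, a fold of 0.287 (0.280 to 0.294). Of 6 measured targets of the ternary complex type 0 were lower and 2 (Egr1 and Egr2) higher, where 12% and 7.75% of all genes were, and Egr2 reached a mean of 5 CPM only through the stimulated library. Egr2 was at 3.00 against 17.5 CPM, a fold of 5.82 (5.12 to 6.63), and Junb, the most abundant, at 129 against 134 CPM, a fold of 1.04 (1.02 to 1.07). Among 23 other focal adhesion genes 7 were lower and 3 higher, against the same 12% and 7.75%. The integrin subunit gene Itgb1 was at 486 against 262 CPM, a fold of 0.538 (0.530 to 0.546), and Lims2, which encodes a partner of Ilk and Parva, at 48.5 against 9.89 CPM, a fold of 0.204 (0.191 to 0.218).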

How the data were processed

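Each library has a deposited matrix of raw UMI counts, which the authors made with Cell Ranger 3.0.2 per the file headers; Cell Ranger 1.3.1 and Seurat 3.0.0 stand in the submitters' processing notes. Libraries were made with a 10x 3′ kit, per the labels. What genome build, annotation and barcode filter were used is not given in the sources. Members and lists were chosen with earlier results of these data known. Groups come from the sample titles.

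Cells with at least 500 genes and at most 20% mitochondrial UMIs were kept (5016 and 7698 barcodes before, 88876791 and 117381412 UMIs). Scrublet in scanpy 1.11.5 marked 1 and 0 cells, too few for a working caller, so doublets remain. Joint clustering used 2000 variable genes, 30 components, 15 neighbours and Leiden resolution 0.5, without integration. A cluster was named where at least 3 markers were seen in 25% of its cells and, for types other than fibroblast, at least 2 were among its 10 leading genes; a shallow cluster stayed unnamed where no marker of the type it would have been given was among these. Counts were summed per library and divided by the total (CPM), and folds carry exact conditional-Poisson intervals. Shares carry exact binomial intervals. On simulated data from the control means (8756 genes, 200 changed) 93.5% of the intervals of changed genes held the true fold. The simulated counts were Poisson draws, as the intervals assume, with no added spread between cells or cultures. They check the computation only. For shared reads, 90-base windows of the last 400 bases of transcripts (GENCODE M21) were aligned with minimap2 2.31, allowing 2 mismatches. All 40 members are named, and other genes by a fixed rule: the most abundant and the largest fold of each list, and SRF partners; genes outside it were named after their values were seen. A further list of pathway genes is not reported here. TMM factors came from edgeR 4.0.16.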

Additional observations from a re-analysis of the deposited data

How the results depend on the processing

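Under the alternatives tried, 7 to 9 muscle-restricted members were lower at the fold used (12 where Cald1, Fhl2, Fhl3, Csrp2 and Palld were counted among them), and 13 to 20 general members, or 6 at 2-fold. Over all cells 12% of all measured genes were lower at 1.5-fold and 5.05% at 2-fold. For the other alternatives this share is given only for the pairs of clusters. The median log2 folds of muscle-restricted and general members were -1.67 and -0.68 with TMM factors, which shift all log2 folds by 0.10, and -1.61 and -0.75 with totals that leave out mitochondrial and ribosomal protein genes. They were -1.98 and -0.91 in cells with no cycling UMI, and -1.16 and -0.73 with those 5 genes moved. The muscle-restricted median was -1.83 with cells thinned to 5000 UMIs, -1.65 at a mean of at least 20 CPM and -1.53 with no such filter. In alternatives added after the data were seen, the medians were -1.65 and -0.71 in clusters 1 and 13, -1.63 and -0.72 in clusters 2 and 12, and -1.70 and -0.66 in clusters 3 and 14. Without the unnamed clusters they were -1.75 and -0.80. The cause of these moves was not tested. Over the 8 settings of scaling and cells run on each member, 28 of 38 measured members stayed on the same side of 1.5-fold; the other 10 (Actn4, Des, Fhl3, Flna, Flnc, Myh9, Myl6, Pxn, Smtn, Vasp) crossed it in at least 1. The pairs of clusters are not counted there. With 1 library per group no library could be left out, and no spread between cultures was measured. No paired analysis was possible because the 2 libraries come from 1 control and 1 stimulated culture with no replicate pairs.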

Other observations

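Mesothelial-like cells of the control library (60 cells) carried contractile transcripts at high levels, with Tagln at 4641 CPM, Acta2 at 3696 CPM and Des at 868 CPM. Their Mylk level, 71 CPM, was under that of every control fibroblast-like cluster, the lowest of which stood at 231 CPM.

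An unnamed control cluster of 283 shallow cells (cluster 6, median 5195 UMIs) had Tagln, Acta2 and Myl9 among its leading genes, with Tagln at 6638 CPM and a muscle-restricted sum of 12402 CPM. The 89 stimulated cells in the same cluster stood at 1339 and 2139 CPM. In the shallow clusters 4 and 8, Fhl3 was at 93.6 CPM in control and 40.9 CPM in stimulated cells, against 7.81 to 8.80 CPM in the control fibroblast-like clusters. These values were picked after they were seen and carry no test.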
